A study of Mus musculus with 6 samples.

Results

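The mammalian circadian clock is described here through 10 of its genes in 3T3-L1 adipocytes with and without a knockdown of the RNA-binding protein RBMS1. The genes were chosen by name, with earlier results of these data known. They are activators (Arntl and Clock), repressors (Per2, Per3, Cry1 and Cry2), nuclear receptors of the secondary loop (Nr1d1 and Nr1d2) and output transcription factors (Dbp and Tef). All 10 were found among the 45706 genes of the count table, and all 10 were among the 11440 genes that passed the filter on low counts and were tested.

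3T3-L1 is a mouse embryonic fibroblast line that can be turned into fat cells in culture. RNA was sequenced from 3 samples of cells carrying a scrambled control short hairpin RNA, with the genotype given as WT, and from 3 samples carrying a hairpin against Rbms1, with the genotype given as RBMS1KD. Both kinds of cell were lentivirally transduced and stably selected, and both received the same adipogenic cocktail of IBMX, insulin, dexamethasone and rosiglitazone before collection on day 7. The number of hairpins or clones behind the knockdown cells and the hour of the day at which cells were collected are not given in the sources used here. The methods call the 3 samples of each group biological replicates and say of the study's experiments in general that they were repeated independently, without tying the sequenced samples to separate cultures, so p-values measure only the spread between these samples.

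In the core loop of the clock, ARNTL (also called BMAL1) pairs with CLOCK, binds E-boxes and switches on the Per and Cry genes, whose proteins return to the nucleus and inhibit the pair. In a second loop the nuclear receptors encoded by Nr1d1 and Nr1d2 (REV-ERBs) repress Arntl through ROR elements that the RORs use to activate it, while DBP, TEF and HLF activate genes through D-boxes. Arntl transcripts therefore peak at roughly the opposite time of the daily cycle from Nr1d1 and Dbp transcripts, and in fat tissue clock output reaches lipid storage and adipokine genes.

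The DNA elements named above were looked for in the promoters of the clock genes, since they are the letters through which these genes are wired to each other. Promoters were RefSeq windows on GRCm38.p6 from 250 bases before to 50 bases after each transcription start, and 9 of the 10 genes had at least 1 window. No window was available for Per2. The E-box CACGTG was present in 7.15% of all 32851 mouse promoter windows, the D-box (TTATGTAA or TTACGTAA) in 1.06%, and the ROR element (TAGGTCA or TGGGTCA) in 6.45%, with both strands searched. Among the clock genes, E-boxes were found for Cry1 and at both starts of Tef, a pair of D-boxes for Per3, and a ROR element just inside the transcribed part of the second start of Arntl. The windows of Clock, Cry2, Nr1d1, Nr1d2 and Dbp held none of these letters. The matches are shown 5′ to 3′ on the strand of the gene, with the motif in capitals, together with that of Bhlhe41, a repressor described further on. The windows of Npas2 and Rora, also described further on, held none of the 3 elements.
Per3 (chr4:151044776-151044910, minus strand): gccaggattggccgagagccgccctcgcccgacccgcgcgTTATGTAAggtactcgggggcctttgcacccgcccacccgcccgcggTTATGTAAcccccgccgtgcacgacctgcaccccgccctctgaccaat
Cry1 (chr10:85185069-85185154, minus strand): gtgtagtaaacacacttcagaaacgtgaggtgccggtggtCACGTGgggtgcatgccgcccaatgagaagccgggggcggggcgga
Tef, first start (chr15:81802506-81802591, plus strand): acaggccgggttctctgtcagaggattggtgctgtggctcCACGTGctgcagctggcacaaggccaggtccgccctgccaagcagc
Tef, second start (chr15:81811236-81811321, plus strand): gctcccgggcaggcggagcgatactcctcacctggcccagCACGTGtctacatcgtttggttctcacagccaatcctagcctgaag
Arntl (chr7:113207533-113207555, plus strand): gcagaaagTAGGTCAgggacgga
Bhlhe41 (chr6:145865528-145865613, minus strand): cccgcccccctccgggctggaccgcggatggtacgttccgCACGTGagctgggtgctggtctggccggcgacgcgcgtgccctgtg
A match is a description of the letters and not of binding. The absence of a match covers only these 300-base windows and exact spellings, since elements elsewhere or with other letters were not searched for.

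Sample totals ran from 3142695 to 11073098 counts, and 3 counts, the floor used for detection, corresponded to between 0.220 and 1.49 CPM (read counts relative to library size, after trimmed-mean normalization). Genes of ribosomal RNA origin took 43.0% of the counts of control replicate 2, the shallowest sample, and 8.12 to 17.8% in the others. Rbms1 stood at 113, 102 and 99.6 CPM in the control samples and 49.2, 61.4 and 84.0 CPM in the knockdown samples. The groups did not overlap, but the log2 fold change of -0.69 (SE 0.20) did not pass the test (edgeR, quasi-likelihood with Benjamini-Hochberg correction, adjusted p = 0.185), and without knockdown replicate 3, the sample with the most Rbms1 among the knockdown samples, it was -0.92 (adjusted p = 0.0708). The paper reported the knockdown at the protein level by immunoblot, whereas these values are RNA only. Directions below are knockdown relative to control, and the threshold was an adjusted p of 0.1.

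No clock gene of the 10 differed between knockdown and control at that threshold, whereas 1.22% of all tested genes did (140 of 11440, of which 0.315% were higher and 0.909% lower). Only Cry1 of the 10 had an unadjusted p under 0.05 and samples that did not overlap between the groups, against backgrounds of 12.4% and 18.5% of tested genes. DESeq2 also called 0 of 10, against 3.20% of the genes it adjusted. Estimated log2 fold changes were above 0 for 6 genes and below 0 for 4, with a median of 0.12 beside 0.0044 over all tested genes, and the median absolute value was 0.21 beside 0.23. In whole-culture RNA, fewer cells expressing a gene and less RNA per cell cannot be told apart.

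**Figure D1:**
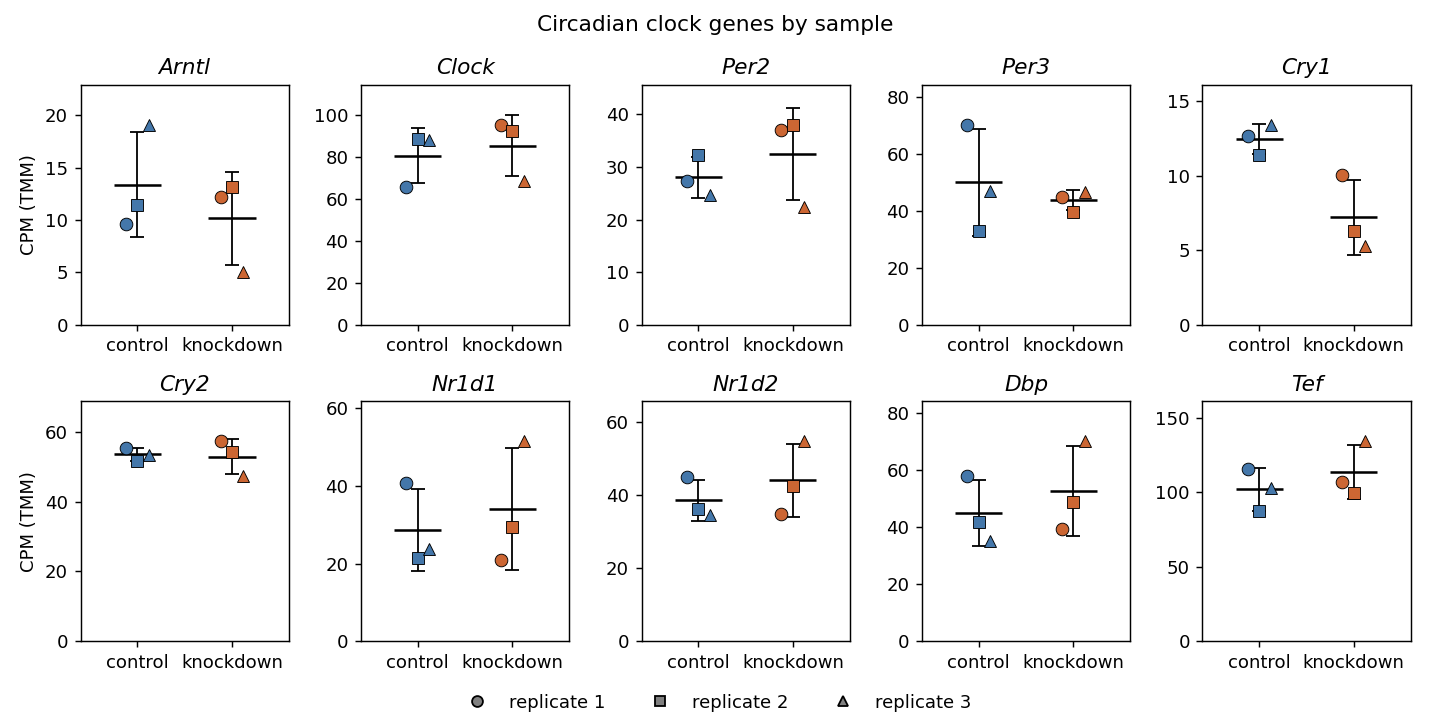
Level of each of the 10 clock genes in CPM (y axis, starting at 0) in the 3 scrambled control and 3 RBMS1 knockdown samples, with points for samples, a wide bar for the mean and whiskers for the SD. Only for Cry1 do all knockdown points, 5.29 to 10.1 CPM, lie below all control points, 11.4 to 13.4 CPM.

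Among the activators, Arntl (ENSMUSG00000055116, GRCm38 chromosome 7, 113207465 to 113314126, plus strand) encodes the partner shared by CLOCK and NPAS2. It measured 9.62, 11.4 and 19.1 CPM in the control samples and 12.2, 13.2 and 5.07 CPM in the knockdown samples, from 23 to 113 counts a sample. Knockdown replicate 3 was the lowest of all 6 and control replicate 3 the highest, and the groups overlapped. The log2 fold change of -0.41 (SE 0.39, 95% interval -1.30 to 0.47) was close in size to its error (edgeR's quasi-likelihood test, adjusted p = 0.726). It shrank to -0.045 without control replicate 3 and to -0.077 without knockdown replicate 3. Clock (ENSMUSG00000029238, chromosome 5, 76209868 to 76304792, minus strand), which encodes the partner of ARNTL, stood at 65.6, 88.8 and 88.1 CPM in control and 95.5, 92.6 and 68.7 CPM in knockdown. In each group 1 sample lay below the other 2, namely control replicate 1 and knockdown replicate 3. The fold change of Clock was 0.08 on the log2 scale (SE 0.19, interval -0.34 to 0.50, adjusted p = 0.901), and -0.043 without control replicate 1.

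Cry1 (ENSMUSG00000020038, chromosome 10, 85131700 to 85185064, minus strand) encodes a cryptochrome, an inhibitor of the CLOCK and ARNTL pair. Its levels were 12.7, 11.4 and 13.4 CPM in control and 10.1, 6.31 and 5.29 CPM in knockdown, with mean ± SD values of 12.5 ± 1.01 and 7.22 ± 2.52 CPM (n = 3 each). Every knockdown sample was below every control sample, with the narrowest gap between control replicate 2 (23 counts, counting interval 7.24 to 17.1 CPM) and knockdown replicate 1 (70 counts, 7.84 to 12.7 CPM), whose intervals overlap. The log2 fold change was -0.81 (SE 0.29, interval -1.46 to -0.16), with an edgeR adjusted p of 0.286 over all tested genes. Without knockdown replicate 1 the value was -1.11 with an adjusted p of 0.0676, the only alternative of 18 under which a clock gene was called. That fit called 696 of 11724 tested genes, against 140 of 11440 with all samples. The adjusted p of Cry1 ranged from 0.0676 to 0.571 over the 18 alternatives. Its paralogue Cry2 (ENSMUSG00000068742, chromosome 2, 92403646 to 92434043, minus strand) was the most even of the 10 among control samples, at 55.5, 51.6 and 53.3 CPM, and measured 57.2, 54.1 and 47.3 CPM in knockdown. Cry2 had a log2 fold change of -0.017 (interval -0.35 to 0.32, adjusted p = 0.975), an estimate at 0 whose sign turned with the scaling, the filter and the sample left out.

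The period genes encode the partners that carry the cryptochromes into the repressor complex. Per2 (ENSMUSG00000055866, chromosome 1, 91415982 to 91459324, minus strand) stood at 27.3, 32.3 and 24.6 CPM in control and 36.9, 38.0 and 22.4 CPM in knockdown. Knockdown replicates 1 and 2 were above every control sample and knockdown replicate 3 below every one. The log2 fold change of Per2 was 0.21 (SE 0.23, interval -0.31 to 0.73, adjusted p = 0.760), with values from 0.097 (without knockdown replicate 2) to 0.43 (without knockdown replicate 3) when each sample was left out. Per3 (ENSMUSG00000028957, chromosome 4, 151003652 to 151044665, minus strand), whose promoter carried the pair of D-boxes shown above, had 70.2, 32.8 and 47.0 CPM in control and 45.0, 39.7 and 46.5 CPM in knockdown. Its spread lay almost wholly in the control group, where the SD of log2(CPM + 0.5) was 0.544, larger than for 86.6% of tested genes, against 0.118 in knockdown, where 16% of genes had a smaller value. Per3 had a log2 fold change of -0.20 (SE 0.25, interval -0.76 to 0.36, adjusted p = 0.800), which was 0.13 without control replicate 1.

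The REV-ERB genes had the same samples on top in both groups. Nr1d1 (ENSMUSG00000020889, chromosome 11, 98767932 to 98775333, minus strand) measured 40.9, 21.3 and 23.7 CPM in control and 20.99, 29.5 and 51.5 CPM in knockdown. One sample in each group stood above the others, control replicate 1 (counting interval 36.0 to 46.2 CPM) and knockdown replicate 3 (47.7 to 55.4 CPM), and neither interval reached those of the other samples of its group. The log2 fold change of Nr1d1 was 0.24 (SE 0.35, interval -0.54 to 1.02, adjusted p = 0.833), and it moved to -0.19 without knockdown replicate 3 and to 0.60 without control replicate 1. Nr1d2 (ENSMUSG00000021775, chromosome 14, 18204054 to 18239127, minus strand) stood at 44.9, 36.2 and 34.6 CPM in control and 34.9, 42.4 and 54.7 CPM in knockdown, with control replicate 1 and knockdown replicate 3 highest. Its log2 fold change was 0.19 (SE 0.20, interval -0.27 to 0.65, adjusted p = 0.758), and 0.0074 without knockdown replicate 3. Exons of Nr1d1 share 263 bases, 8.55% of their length, with exons of Thra on the opposite strand, a gene that encodes a thyroid hormone receptor. Thra, named for this overlap, measured 67.5, 67.0 and 57.1 CPM in control and 40.8, 52.0 and 63.4 CPM in knockdown (log2 fold change -0.29, adjusted p = 0.571), and the strand setting of the counting is not given in the sources used here.

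Dbp and Tef encode PAR bZIP factors that carry the rhythm to metabolic genes through D-boxes. Dbp (ENSMUSG00000059824, chromosome 7, 45705088 to 45710203, plus strand) measured 57.7, 41.7 and 35.1 CPM in control and 39.2, 48.8 and 70.0 CPM in knockdown. Control replicate 1 and knockdown replicate 3 again stood highest, and the log2 fold change was 0.23 (SE 0.25, interval -0.34 to 0.80, adjusted p = 0.762), or -0.024 without knockdown replicate 3. Dbp exons share 539 bases, 18.0% of their length, with Sphk2 on the opposite strand, which encodes a sphingosine kinase. Sphk2, also named for its overlap, was lower in every knockdown sample than in any control sample, with 31.7, 35.7 and 36.5 CPM in control and 26.2, 27.9 and 22.8 CPM in knockdown, but did not pass the test (adjusted p = 0.328). Tef (ENSMUSG00000022389, chromosome 15, 81802421 to 81826863, plus strand), with an E-box at each start, stood at 116, 87.4 and 103 CPM in control and 107, 99.6 and 134 CPM in knockdown. The log2 fold change of Tef was 0.15 (SE 0.17, interval -0.23 to 0.54, adjusted p = 0.769), and 0.022 without knockdown replicate 3.

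For several clock genes the samples of a group differed more than the group means did. Described after the values were seen, knockdown replicate 3 was the highest or lowest of its group for 10 of the 10 genes, against 66.6% of all tested genes. It was highest for Per3, Nr1d1, Nr1d2, Dbp and Tef and lowest for Arntl, Clock, Per2, Cry1 and Cry2. Control replicate 1 was highest for Per3, Cry2, Nr1d1, Nr1d2, Dbp and Tef and lowest for Arntl and Clock. The 2 samples thus lay at the same end of their groups for 7 genes and at opposite ends for 1, Cry2, where 29.8% and 16.5% of all tested genes did so. The clock genes are linked through the loops described above, so the 10 are not independent. Both samples were picked from the 6 after the values were seen. Relative to the mean of the other 2 knockdown samples, knockdown replicate 3 had 0.398 times as much Arntl, 0.598 times as much Per2 and 0.731 times as much Clock. On the same measure it had 2.04 times as much Nr1d1, 1.59 times as much Dbp, 1.41 times as much Nr1d2 and 1.30 times as much Tef. For Per3 it had only 1.10 times as much, and its counting interval (42.92 to 50.23 CPM) overlapped that of knockdown replicate 1 (40.15 to 50.27 CPM). Control replicate 1, relative to the mean of the other 2 control samples, had 0.630 times as much Arntl, 1.81 times as much Nr1d1, 1.50 times as much Dbp and 1.76 times as much Per3.

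**Figure D2:**
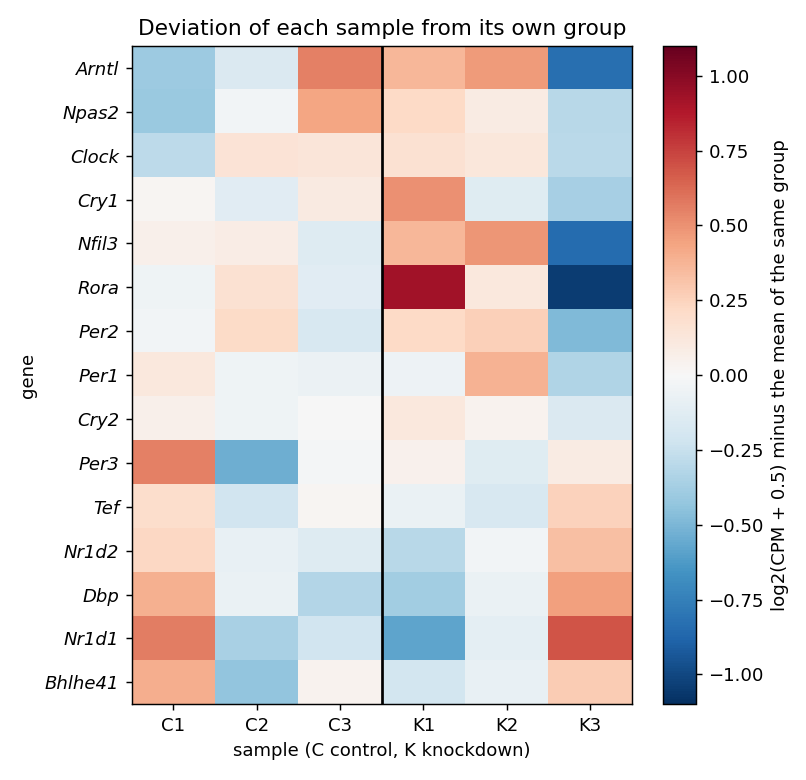
Deviation of each sample from the mean of its own group, in log2 units (colour), for the clock genes and the other named clock pathway genes (down the side) in the 6 samples (along the bottom, C for control and K for knockdown). Control replicate 1 and knockdown replicate 3 share low Arntl and Clock with high Nr1d1, Nr1d2, Dbp and Tef. Per3 is high in control replicate 1 (1.76 times the mean of the other 2) but barely so in knockdown replicate 3 (1.10 times). Low Per2, Cry1, Rora, Nfil3 and Per1 in knockdown replicate 3 are not shared. For these genes control replicate 1 had 0.95 (Rora) to 1.13 (Per1) times the mean of the other 2 control samples.

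Across all 11440 tested genes, the deviations of control replicate 1 and knockdown replicate 3 from their group means had a correlation of 0.206, the highest of the 9 control and knockdown pairs (range -0.173 to 0.206), as a description over genes that are not independent. Knockdown replicate 3 was the deepest sample and had the lowest share of ribosomal RNA, 8.12%, while control replicate 1 lay within the range of the others on both measures. The part of depth, RNA composition or time of collection in this order was not tested.

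The balance between the opposed arms of the loop was set out as a ratio of counts within each sample (0.5 added to each count), which needs no library scaling. Nr1d1 relative to Arntl was 4.22, 1.85 and 1.24 in control and 1.71, 2.23 and 10.1 in knockdown, an 8.13-fold range over the 6 samples. Dbp relative to Arntl was 5.96, 3.60 and 1.83 in control and 3.20, 3.68 and 13.7 in knockdown. For both ratios knockdown replicate 3 was the highest sample, control replicate 1 came second and control replicate 3 was the lowest. Per2 relative to Arntl varied less, at 2.82, 2.79 and 1.29 in control and 3.01, 2.87 and 4.40 in knockdown, where the lowest sample was again control replicate 3. Here every knockdown sample lay above every control sample, by a gap as small as that between 2.82 and 2.87. In knockdown replicate 3, Per2 itself was the lowest of the 6 samples (22.4 CPM), and so was Arntl (5.07 CPM). All 3 ratios have Arntl, with 23 to 113 counts a sample, as their denominator, so they are not independent. No background share is given for such ratios. The mean log2 ratio of Nr1d1 to Arntl was 1.09 ± 0.90 in control and 1.75 ± 1.38 in knockdown (SD, n = 3 each), so the difference of 0.66 was smaller than the spread within either group, and it lay between -0.13 and 1.16 when each sample was left out in turn. For Dbp to Arntl the difference was 0.68, with SDs of 0.85 and 1.16, and for Per2 to Arntl it was 0.64, with SDs of 0.65 and 0.34. Leaving out each sample moved the Dbp difference between 0.013 (without knockdown replicate 3) and 1.08 (without control replicate 1), and the Per2 difference between 0.26 (without control replicate 3) and 0.83 (without control replicate 1). The ratios are a description with no test.

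**Figure D3:**
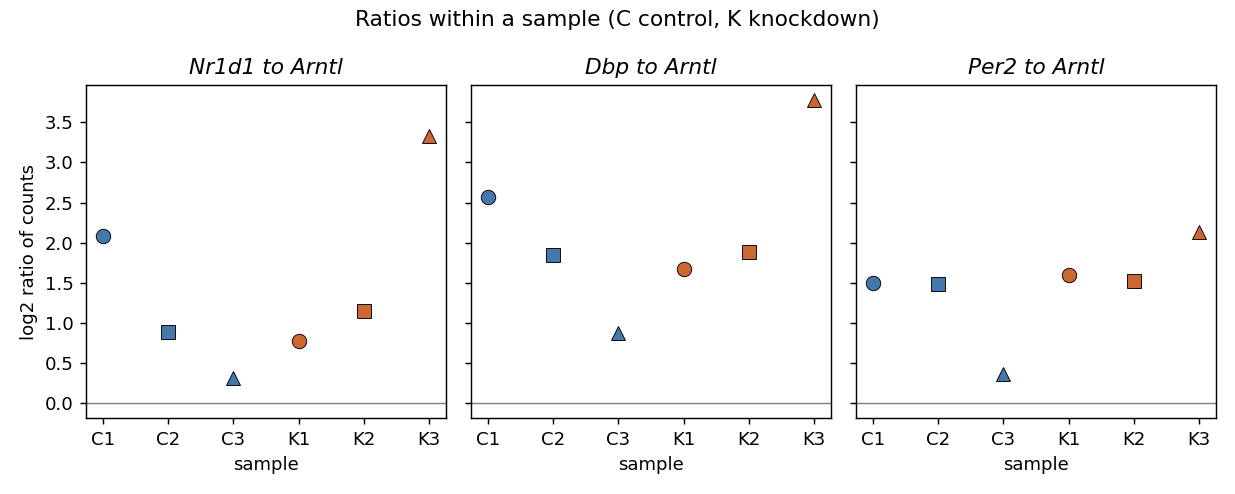
Ratio of Nr1d1, Dbp and Per2 to Arntl within each sample (log2 scale, y axis) in the 3 scrambled control and 3 RBMS1 knockdown samples, with 1 point a sample. Knockdown replicate 3 has the highest value of all 3 ratios, and the groups overlap for Nr1d1 and Dbp but are separated by a narrow gap for Per2.

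Spread within groups was wide for Arntl and Nr1d1. The SD of log2(CPM + 0.5) of Arntl was 0.497 in control and 0.722 in knockdown, larger than for 84.0% and 91.3% of tested genes, and that of Nr1d1 was 0.494 and 0.643. Cry2 lay at the other end, with 0.0514 and 0.140, where 4.01% and 21.2% of tested genes had a smaller SD. The median over the 10 genes was 0.225 in control and 0.369 in knockdown, beside 0.241 and 0.256 over all tested genes.

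Per kilobase of exon, the mean levels of the output and REV-ERB genes were above those of the activators and repressors of the core loop, apart from Cry2. In control, Dbp had 15.0 ± 3.88 CPM per kilobase (SD, n = 3), Nr1d1 9.31 ± 3.46, Cry2 8.46 ± 0.305 and Clock 5.89 ± 0.964 on the same scale. The order among control samples was Dbp, Tef, Nr1d1, Cry2, Nr1d2, Clock, Per3, Per2, Cry1 and Arntl. Ranges of neighbours in this order overlapped except that Per2 stood above Cry1 and Cry1 above Arntl, which had 4.79 ± 0.664, 3.74 ± 0.303 and 1.78 ± 0.669 CPM per kilobase. In knockdown the order differed only in that Per2 (5.54 ± 1.49) came before Per3 (4.55 ± 0.368), which overlapped, and the range of Cry1 (2.16 ± 0.753) now overlapped that of Arntl (1.35 ± 0.591). Exon length was the union of annotated exons, so a gene that uses short transcripts is placed too low.

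Beyond the 10, a list of 40 other genes of the clock pathway (Per1, the RORs, kinases, ubiquitin ligases, coactivators and known outputs) had 36 tested members, without Elovl3, Fbxl21, Hlf and Rorb. Of the 36, 1 rose (Bhlhe41) and 1 was called lower (Npas2), beside 0.315% and 0.909% of all tested genes. Npas2 passed the filter on low counts through its control samples alone, so nothing is read from the count of lower genes. Among the 35 without Npas2, the samples of 9 did not overlap between groups (25.7% beside 18.5% of all tested genes), and 5 had an unadjusted p under 0.05 (14.3% beside 12.4%). The log2 fold changes of the 36, Npas2 included, were above 0 for 14 and below 0 for 22, with a median of -0.092. DESeq2 called 3 of the 38 genes it adjusted, beside 3.20% of all genes it adjusted, and the 3 were Bhlhe41, Rora and Npas2. Because that count includes Npas2, nothing is read from it either.

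**Figure D4:**
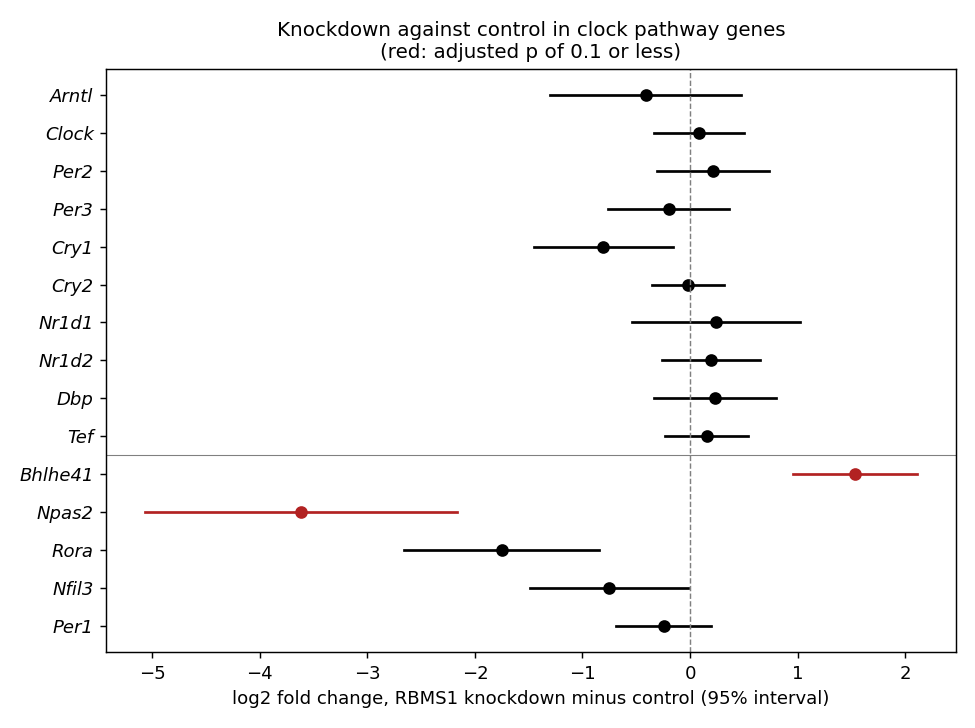
Log2 fold change, knockdown relative to control (x axis), with 95% intervals from edgeR's fit, for the 10 clock genes (above the line) and the other named clock pathway genes (below it), in red where the adjusted p was 0.1 or less. Bhlhe41 lies at 1.53, and Npas2, at -3.62, and Rora, at -1.75, lie farthest to the left, while 9 of the 10 clock gene intervals cover 0.

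Bhlhe41 (DEC2), a repressor that competes with CLOCK and ARNTL for E-boxes and has one in its own promoter window, was the gene that rose. It had 11.9, 6.45 and 9.12 CPM in control and 23.1, 25.3 and 32.6 CPM in knockdown, with means ± SD of 9.14 ± 2.71 and 27.0 ± 4.96 CPM. Every knockdown sample was above every control sample, and the log2 fold change was 1.53 (SE 0.26, interval 0.96 to 2.11, edgeR's quasi-likelihood test, adjusted p = 0.0453). The call was lost, at an adjusted p of 0.104, 0.152, 0.214 and 0.134, when control replicate 1, 2 or 3 or knockdown replicate 2 was left out, with a fold change between 1.36 and 1.77.

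Npas2, a paralogue of Clock that can take its place beside ARNTL, was called lower at very low counts, and it entered the tested set only through the control group, where it was higher. The control samples had 16, 7 and 29 counts (2.57, 3.47 and 4.99 CPM) and the knockdown samples 3, 3 and 2 (0.431, 0.351 and 0.147 CPM). Each knockdown sample was at or under the floor of 3 counts. The fitted log2 fold change was -3.62 (SE 0.65, interval -5.07 to -2.17, adjusted p = 0.0529). With no filter on low counts it was -3.62 with an adjusted p of 0.0151. Leaving out any 1 sample other than knockdown replicate 1 lost the call, with adjusted p between 0.111 (without knockdown replicate 3) and 0.298 (without control replicate 3).

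Rora, the nuclear receptor that activates Arntl through the ROR element, had 82.6, 95.8 and 78.3 CPM in control and 42.1, 23.9 and 10.4 CPM in knockdown. The groups did not overlap, and the knockdown samples spread over a wide range, with knockdown replicate 3 at 0.316 times the mean of the other 2. The log2 fold change of -1.75 (SE 0.40, interval -2.66 to -0.85) had an adjusted p of 0.111 by edgeR, just short of the threshold, and of 0.000722 by DESeq2. It was called without knockdown replicate 1 (-2.32, adjusted p = 0.00673) and without knockdown replicate 3 (-1.37, adjusted p = 0.0516), but had adjusted p values of 0.243 to 0.363 when any other sample was left out. The fit without knockdown replicate 1 called 696 of 11724 tested genes, and the fit without knockdown replicate 3 called 116 of 11633. Limma-voom (adjusted p = 0.0883) and edgeR with no filter on low counts (adjusted p = 0.0338) called Rora as well. Nfil3, a repressor that competes with DBP and TEF for D-boxes, had 25.8, 26.3 and 22.4 CPM in control and 17.7, 19.3 and 7.34 CPM in knockdown. Its samples did not overlap either, with a log2 fold change of -0.75 (SE 0.33, interval -1.49 to -0.017, edgeR adjusted p = 0.391). Per1, the third period gene, had 66.2, 59.1 and 58.5 CPM in control and 48.6, 66.3 and 40.2 CPM in knockdown, and the groups overlapped (log2 fold change -0.25, adjusted p = 0.668). Hlf, the PAR bZIP relative of Dbp and Tef, had 8 counts over the control samples and 2 over the knockdown samples and was not tested.

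Marker genes of the cells in the culture were read beside these values. The 10 adipocyte markers summed to between 21005 and 24476 CPM in control and between 10894 and 19765 CPM in knockdown, with all 9 tested markers below 0 (median log2 fold change -0.43) and 1, Retn, which encodes the adipokine resistin, past the threshold, where 5673 of the 11440 tested genes were below 0 and 0.909% were called lower. The 7 fibroblast and preadipocyte markers summed to 7012 to 7790 CPM in control and 3430 to 7370 CPM in knockdown, with 6 below 0 and 0 called (beside 1.22% of all tested genes). Knockdown replicate 1 stood apart from the other knockdown samples on both sums, with adipocyte markers at 19765 CPM against 10894 and 12766 and fibroblast markers at 3430 CPM against 7370 and 6550, and it had the most Cry1 and Rora among them. The 4 macrophage markers summed to at most 3.27 CPM in any sample, with Adgre1 and Ptprc at 0 in all 6, and the 3 endothelial markers to at most 1.99 CPM, with Kdr at 0 in all 6. Adipocyte markers summed to 21005 CPM in control replicate 1 and 12766 CPM in knockdown replicate 3, the pair of samples with high Nr1d1 and Dbp. The part of adipocyte content in the clock gene values was not tested.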

How the data were processed

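RNA of 3 scrambled control and 3 RBMS1 knockdown 3T3-L1 samples was sequenced from a stranded total RNA library. According to the submitters' processing notes the authors used Trim Galore 0.6.7, STAR 2.7.10a and Salmon 1.9.0 with GRCm38, and they deposited estimated counts per gene; the annotation release and strand setting are not given in the sources used here. The deposited values were rounded to whole counts, and genes were kept by edgeR's default filter on low counts (filterByExpr). Counts were scaled by trimmed means and tested in edgeR 4.0.16 (R 4.3.3) by the quasi-likelihood test (newer dispersion estimate) of knockdown against control with Benjamini-Hochberg adjustment over all tested genes, called at 0.1. DESeq2 1.42.0, limma 3.58.1 (voom), library sizes alone, size factors, other filters, unrounded counts, removal of GC and length trends, a replicate block and leaving out each sample were alternatives. Log2 spreads of CPM and ratios of counts used a pseudocount of 0.5. Positions and exon lengths came from GENCODE on GRCm38. Counting intervals (95%, Poisson) cover counting error only.

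Named genes were Rbms1, the 10 clock genes, the called genes of the other clock pathway list, and Per1, Npas2, Rora, Nfil3 and Hlf whatever their values. The members and lists were chosen with earlier results of these data known. Numbered replicates were not taken as pairs, because deviations of same-numbered samples from their group means had correlations of -0.144, 0.0785 and -0.0284.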

Additional observations from a re-analysis of the deposited data

How the results depend on the processing

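Against 140 genes called by edgeR, DESeq2 called 430, no filter on low counts 268, the replicate block 39 and the replicate block with GC and length trend removed 45, and leaving out each sample gave 12 (without control replicate 2) to 696 (without knockdown replicate 1). The number of clock genes called was 0 to 1 when each sample was left out, the 1 being Cry1 without knockdown replicate 1, and 0 otherwise. For the other clock pathway genes, against 2 called, both fits with the replicate block called 0 (with the block alone, Bhlhe41 at 1.56, adjusted p = 0.120, and Npas2 at -3.63, adjusted p = 0.187), and leaving out each sample gave 0 to 5, the 5 without knockdown replicate 1. With library sizes alone the median of all genes moved by 0.37 on the log2 scale, calls went from 104 lower of 140 to 42 lower of 126, and Per3 (0.11), Cry2 (0.35) and Per1 (0.11) turned positive. Relative to that median Per3 and Cry2 were at -0.26 and -0.027. Cry2 was 0.0019 with no filter. Leaving out each sample gave log2 fold changes of -0.043 to 0.22 for Clock, -0.42 to 0.13 for Per3, -0.070 to 0.062 for Cry2, -0.19 to 0.60 for Nr1d1 and -0.024 to 0.47 for Dbp. Arntl (-0.64 to -0.045), Per2 (0.097 to 0.43), Cry1 (-1.11 to -0.61), Nr1d2 (0.0074 to 0.34) and Tef (0.022 to 0.26) did not change sign, there or under the other alternatives, but Arntl, Nr1d2 and Tef came close to 0. The earlier quasi-likelihood estimate of edgeR was an alternative chosen after seeing the data. The block changed no other call among the named genes. In control replicate 2, the shallowest sample, Arntl and Cry1 each had 23 counts, which limits their precision there.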
